A study of Mus musculus with 3 samples.

Results

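The Gadd45 family comprises 3 mouse genes, Gadd45a, Gadd45b and Gadd45g, read here by 4 of the 56599 probes on each of 3 single-colour arrays. The genes were chosen because Gadd45g and Gadd45b had far higher signals with urine than with PBS, so their differences from PBS are descriptions and support nothing by themselves. All non-control probes that carried these gene names were kept. The cells were splenocytes from 6-month-old MRL/MpJ males with an intact Fas gene. They spent 3 h in culture with urine that came from the Fas-deficient, autoimmune strain MRL/MpJ-Faslpr/lpr (lpr urine), with MRL/MpJ urine, or with PBS alone. The lpr mutation of Fas was carried by the donors of the first urine and not by the cultured cells. Each urine was a pool from 6 male donors, passed through a 0.22 µm filter, and each well held 500 µL of medium. Each condition had 1 array, so the differences have no replicate check and no test, and treatment, culture well and array cannot be told apart.

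GADD45 proteins are small, acidic stress proteins without enzyme activity that act by binding others. They open and activate the kinase MTK1 (gene Map3k4), which drives the stress kinases p38 and JNK, and they bind the CDK1 and cyclin B1 complex, the replication clamp PCNA and the cell cycle inhibitor p21. GADD45A is a classical p53 target after DNA damage, GADD45B was found as a gene of myeloid differentiation and is induced by NF-kB and TGF-beta, and GADD45G is induced by cytokines. In T cells of the mouse, GADD45B and GADD45G sustain p38 activity downstream of interleukin-12 and interleukin-18 and so promote interferon-gamma production.

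The promoters are shown because all 3 genes had higher signals with both urines. Each line gives the 250 bases before the RefSeq start on build GRCm38.p6, with capitals at matches on either strand to the octamer ATTTGCAT, the E-box CACGTG, the TATA box TATAAA and the CCAAT box. The windows are chr6:67037408-67037657 on the minus strand for Gadd45a, chr10:80929841-80930090 on the plus strand for Gadd45b, and chr13:51846425-51846674 on the plus strand for Gadd45g.
Gadd45a: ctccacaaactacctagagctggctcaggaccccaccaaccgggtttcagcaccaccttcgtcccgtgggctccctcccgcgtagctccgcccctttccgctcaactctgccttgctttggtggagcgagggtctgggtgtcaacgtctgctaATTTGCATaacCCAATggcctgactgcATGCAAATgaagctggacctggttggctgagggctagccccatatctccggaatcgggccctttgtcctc
Gadd45b: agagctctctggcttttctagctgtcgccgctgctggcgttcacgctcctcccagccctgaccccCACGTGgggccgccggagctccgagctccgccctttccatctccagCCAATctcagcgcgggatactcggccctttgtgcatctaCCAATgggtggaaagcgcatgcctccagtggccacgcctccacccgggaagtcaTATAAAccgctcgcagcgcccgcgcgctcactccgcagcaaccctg
Gadd45g: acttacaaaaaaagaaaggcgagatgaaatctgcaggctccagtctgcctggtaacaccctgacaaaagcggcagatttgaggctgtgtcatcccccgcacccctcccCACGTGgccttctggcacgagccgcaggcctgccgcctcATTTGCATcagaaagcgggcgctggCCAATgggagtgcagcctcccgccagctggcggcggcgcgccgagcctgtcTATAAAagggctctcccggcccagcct

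The CCAAT box was found in 3 of 3 windows, against 33.8% of 32851 mouse promoter windows of the same length. The octamer stood in Gadd45a on both strands, at 97 to 90 and at 70 to 63 bases before the start, and in Gadd45g at 103 to 96 bases, against 1.60% of all windows. Gadd45b and Gadd45g shared the E-box (6.02% of all windows) and the TATA box (12.4%), which Gadd45a lacked within these letters. A GC box (GGGCGG, 32.7% of all windows) was present in Gadd45a and Gadd45b. The cyclic AMP response element TGACGTCA and the AP-1 site TGANTCA matched 0 of 3 windows. The matches did not overlap each other, and they describe letters, not bound sites.

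Gadd45g differed most from PBS. Its probe for the RefSeq mRNA NM_011817 (A_51_P315904, mm9 chr13:51943733-51943792, plus strand) read 56521 ± 5652 intensity units with lpr urine, 65072 ± 6507 with MRL/MpJ urine and 626 ± 62.6 with PBS, where ± is the scanner software's own error for a single spot. Both urine arrays were high and the PBS array was low. The arrays were put on 1 scale by dividing each by its 75th percentile of processed signal, which was 75.7 with lpr urine, 86.6 with MRL/MpJ urine and 157.5 with PBS. The scaled signal of Gadd45g, in multiples of that percentile, was 746 with lpr urine, 751 with MRL/MpJ urine and 3.97 with PBS. Relative to PBS this is 188-fold more with lpr urine (log2 difference 7.55 ± 0.20) and 189-fold more with MRL/MpJ urine (7.56 ± 0.20), the errors being those of the spots alone. Without scaling between arrays the folds were 90.3 and 104, because the urine arrays were dimmer as a whole. Only 4 of the 29741 probes measured on both arrays exceeded PBS by more with lpr urine, and 4 of 30286 with MRL/MpJ urine. The probe was far from the saturation value of 778082 on every array. Local background around its spot was 21, 19 and 19 units with lpr urine, MRL/MpJ urine and PBS.

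Gadd45b, an NF-kB and TGF-beta target that restrains JNK in some cells, was well above background with PBS and higher with both urines. Its probe (A_52_P1197913, NM_008655, mm9 chr10:80394367-80394426, plus strand) read 13417 ± 1342 intensity units with lpr urine, 15959.9 ± 1596 with MRL/MpJ urine and 1781 ± 178 with PBS. The scaled signal was 177, 184 and 11.3 in the same order. It exceeded PBS 15.7-fold with lpr urine (log2 difference 3.97 ± 0.20) and 16.3-fold with MRL/MpJ urine (4.03 ± 0.20), and the unscaled signal exceeded it 7.53-fold and 8.96-fold. Of all measured probes, 251 (0.844%) exceeded PBS by more with lpr urine and 230 (0.759%) with MRL/MpJ urine.

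Gadd45a, the p53-responsive member, was higher with urine on both of its probes. The probe for the RefSeq mRNA NM_007836 (A_51_P296608, mm9 chr6:66985376-66985435, minus strand) read 946 ± 94.6 intensity units with lpr urine, 930.3 ± 93.0 with MRL/MpJ urine and 128 ± 12.8 with PBS. This is a scaled difference of 15.4-fold with lpr urine (log2 difference 3.95 ± 0.20) and 13.3-fold with MRL/MpJ urine (3.73 ± 0.20), and an unscaled one of 7.42-fold and 7.29-fold. Larger positive differences were seen for 255 probes (0.857%) with lpr urine and 283 (0.934%) with MRL/MpJ urine. The gene thus stood near Gadd45b in its distance from PBS. It was not one of the genes for which the family was chosen, but the members were picked with earlier results known. Its difference is therefore a description too.

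The other Gadd45a probe reads the Ensembl transcript ENSMUST00000126194.1 (A_55_P2617034, mm9 chr6:66986425-66986484, minus strand), 1049 bases further toward the start of the gene. It was dim, at 78.0 ± 7.87 intensity units with lpr urine, 86.2 ± 8.68 with MRL/MpJ urine and 8.79 ± 1.36 with PBS. The last value lies close to 4.47, the dimmest signal on the PBS array with a call of well above background. Its scaled signal exceeded PBS 18.5-fold with lpr urine (log2 difference 4.21 ± 0.27) and 17.8-fold with MRL/MpJ urine (4.16 ± 0.27). With normexp background correction, which raises dim signals by an offset of 50, the log2 differences were 1.70 and 1.68, so the direction held and the size did not. The exon or intron under each probe was not determined here. The longest run of bases shared by any of the 6 pairs of the 4 probes was 7, so no probe shared a long stretch with another.

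**Figure D1:**
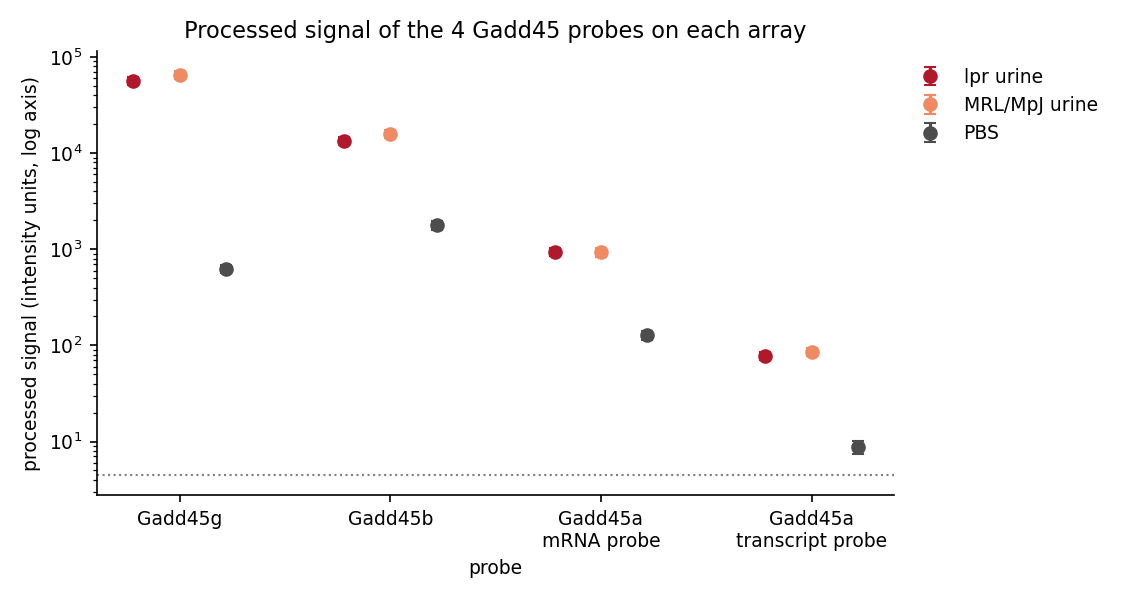
Processed signal (intensity units, log axis) of each Gadd45 probe on the lpr urine, MRL/MpJ urine and PBS arrays, as 1 point per array with the software's spot error, most bars being smaller than the point. Both urine points lie above the PBS point for all 4 probes, and the dotted line marks 4.47, the dimmest PBS signal called well above background; heights of different probes cannot be compared.

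All 4 probes were well above background and unsaturated on the 3 arrays. All 4 exceeded PBS at least 2-fold with lpr urine, where 16.9% of 29741 measured probes were higher and 13.2% lower, and with MRL/MpJ urine, where 15.5% of 30286 were higher and 12.4% lower. At 8-fold the counts were again 4 of 4, beside 1.88% and 1.75% of all probes. Because the family was picked on these contrasts, nothing is read from those shares. Among the 4, Gadd45g stood apart from the next probe by 3.35 ± 0.34 on the log2 scale with lpr urine and by 3.41 ± 0.34 with MRL/MpJ urine. Next in order came the dim Gadd45a probe, Gadd45b and the Gadd45a mRNA probe with both urines. Neighbours in that order were 0.24 ± 0.34 and 0.02 ± 0.29 apart with lpr urine, both within their spot errors. They were 0.13 ± 0.34 and 0.30 ± 0.29 apart with MRL/MpJ urine, so that Gadd45b and the Gadd45a mRNA probe were about 1 spot error apart.

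**Figure D2:**
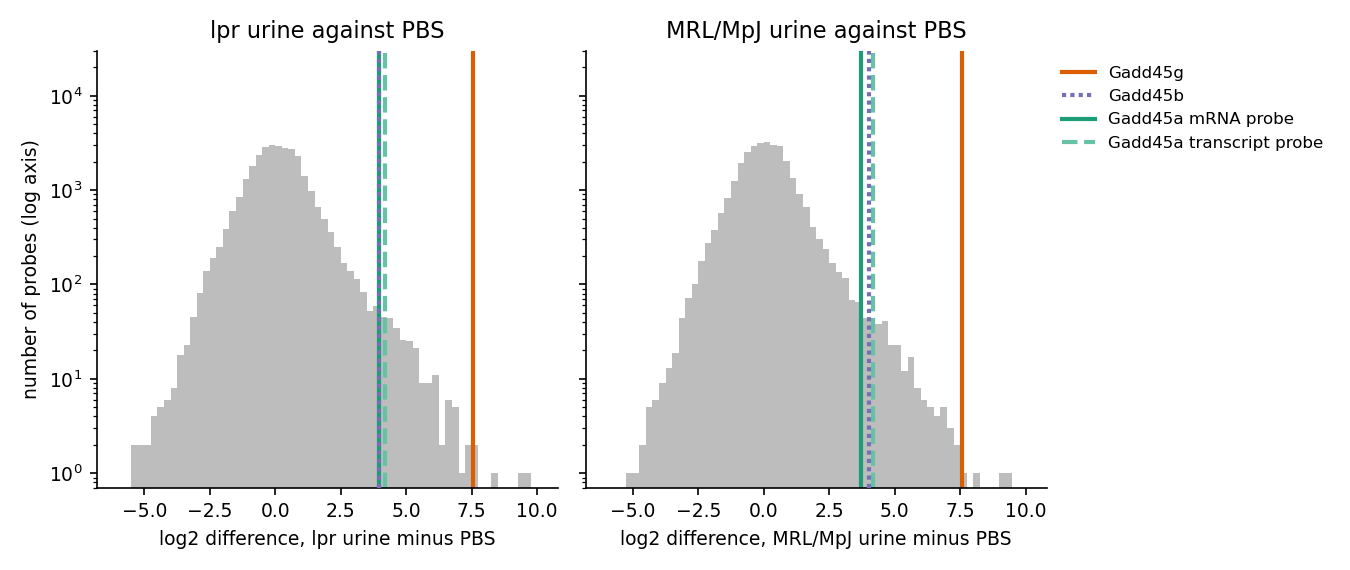
Number of probes (log axis) by log2 difference from PBS for lpr urine (left) and MRL/MpJ urine (right), over probes well above background on both arrays, with vertical lines at the Gadd45 probes. Gadd45g lies at 7.55 and 7.56, near the right end, and the other 3 probes lie between 3.73 and 4.21.

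Between the urines no Gadd45 probe differed by 2-fold. The choice of members did not use this contrast. With lpr urine relative to MRL/MpJ urine, the log2 difference was -0.01 ± 0.20 for Gadd45g, -0.06 ± 0.20 for Gadd45b, 0.05 ± 0.21 for the dim Gadd45a probe and 0.22 ± 0.20 for the Gadd45a mRNA probe. The count past 2-fold was 0 of 4 in either direction, and of all 30606 measured probes 0.294% were at least 2-fold higher with lpr urine and 0.0719% were lower. For the Gadd45a mRNA probe, 15.1% of measured probes had a higher value of this difference. Over the 6 other ways of processing tried, Gadd45g spanned -0.20 to -0.03, Gadd45b -0.25 to -0.08 and the Gadd45a mRNA probe 0.02 to 0.20. The dim Gadd45a probe changed sign, at -0.05 with spike-in scaling and -0.14 without scaling, both smaller than its spot error. Without replicates, these values do not show that the urines act alike on the family.

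Directions against PBS depend on the scale, since the urine arrays were dimmer. Scaling on the 8 E1A spike-ins, synthetic transcripts added to the labelling in fixed amounts, moves each difference by -0.98 with lpr urine and by -0.88 with MRL/MpJ urine. The measured probes at least 2-fold higher and lower were 5031 and 3923 with lpr urine, against 1512 and 13677 on the spike-in scale, and 4682 and 3754 with MRL/MpJ urine, against 1545 and 12849. On that scale Gadd45g still differed by 6.57 with lpr urine and 6.68 with MRL/MpJ urine, Gadd45b by 2.99 and 3.15, the Gadd45a mRNA probe by 2.97 and 2.85, and the dim Gadd45a probe by 3.23 and 3.28. All 4 probes were thus higher with both urines under every scaling used.

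**Figure D3:**
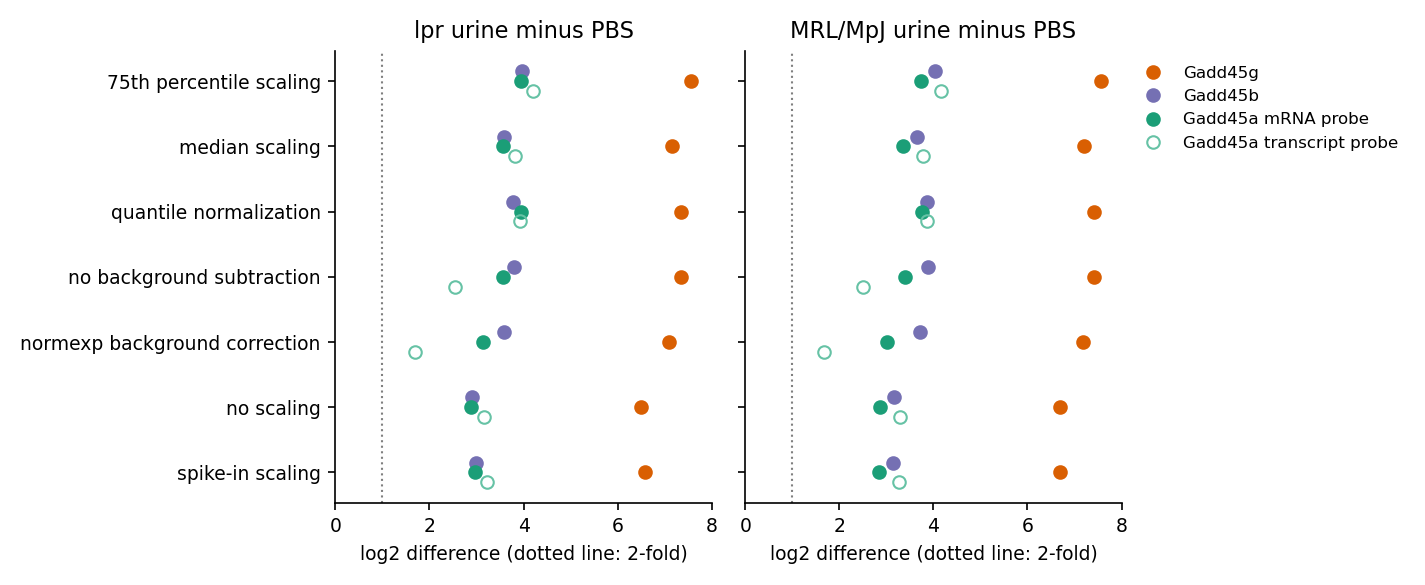
Log2 difference from PBS of the 4 Gadd45 probes for lpr urine (left) and MRL/MpJ urine (right) under 75th percentile scaling and 6 other settings, 1 point per probe and setting, with the dotted line at 2-fold. Gadd45g stays between 6.50 and 7.56, and the lowest point is the dim Gadd45a probe at 1.68 with normexp background correction.

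For reading the gene lists that follow, 15.1% of 12786 measured named genes were at least 2-fold higher and 13.5% lower with lpr urine, and 14.1% of 12898 were higher and 12.3% lower with MRL/MpJ urine. On the spike-in scale these shares were 4.36% higher and 49.9% lower with lpr urine, and 4.50% higher and 45.5% lower with MRL/MpJ urine. The median of named genes was -0.02 in each comparison, and -0.998 and -0.90 on the spike-in scale.

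Markers of spleen cell types were present. Markers of urinary tract epithelium reached 2 of 8. These were Upk1a (8.77, 9.52 and 26.0 intensity units with lpr urine, MRL/MpJ urine and PBS) and Aqp2 (14.1, 11.6 and 12.7). Upk1b, Upk2, Upk3a, Krt5, Krt20 and Umod were not well above background on any array. B cell markers were measured in 8 of 8, T cell markers in 9 of 10, and those of monocytes and macrophages in 9 of 9. Some differed with the urines: of the 8 B cell markers, 3 were at least 2-fold higher with lpr urine and 4 with MRL/MpJ urine, beside 15.1% and 14.1% of named genes (summed signal 31456, 38215 and 35348 intensity units with lpr urine, MRL/MpJ urine and PBS), and of the 9 monocyte and macrophage markers 4 were with each urine (11509.8, 13905 and 14600.1). The medians of these lists were 0.92 and 0.96 for B cells and 0.91 and 0.84 for monocytes and macrophages. On the spike-in scale they were -0.06 and 0.08, and -0.07 and -0.04. There 1 B cell marker and 0 of the 9 others were at least 2-fold higher with each urine. Cd79b, another B cell marker, was at least 2-fold lower there (-1.32 and -1.11). Before it, medians were positive also for neutrophils (0.81 and 0.68), erythroid cells (0.72 and 0.58), and platelets and megakaryocytes (0.76 and 0.52). They were 0.08 and 0.18 for dendritic cells and -0.24 and -0.25 for natural killer cells. Stromal and endothelial markers, at 0.53 and 0.46, rested on 2 measured genes. Each of these other lists had a negative median on the spike-in scale. T cell markers had 0 of 9 at least 2-fold apart (unscaled summed signal 20685, 22371 and 43684). On the spike-in scale 3 of 9 were lower with each urine, beside 49.9% and 45.5% of named genes. Their medians there were -0.76 and -0.84, beside -0.998 and -0.90 for named genes. In such mixed cells, fewer cells of a type and less RNA per cell cannot be told apart, and the part of cell make-up in the Gadd45 differences was not tested.

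In the kinase cascade that GADD45 proteins activate, 1 of 15 measured members was at least 2-fold higher and 1 lower with each urine, beside 15.1% and 13.5% of named genes with lpr urine and 14.1% and 12.3% with MRL/MpJ urine. On the spike-in scale 0 were higher and 8 of 15 lower with each urine, beside 49.9% and 45.5% of named genes lower. Map3k4, which encodes the direct GADD45 target MTK1, read 458, 564 and 696 intensity units with lpr urine, MRL/MpJ urine and PBS, a log2 difference of 0.45 and 0.56 that is negative on the spike-in scale. Map2k6, the gene of a p38-activating kinase, was higher by 1.80 with lpr urine and 1.73 with MRL/MpJ urine on its brightest probe. That probe differed by 0.82 and 0.85 on the spike-in scale, and the gene's other measured probe by 1.02 and 0.79 before it. Mapkapk3, the gene of a kinase downstream of p38, was the lowest at -1.77 and -1.69. Mapk9 (JNK2) and Map2k3, another p38 activator, lay within 2-fold at -0.90 and -0.89 with lpr urine and -0.94 and -0.93 with MRL/MpJ urine, but were lower on the spike-in scale, at -1.88 and -1.87, and at -1.82 and -1.80. Mapk8 (JNK1) was at 0.84 and 0.72 and Mapk13 (p38 delta) at 0.76 and 0.86, all 4 values being slightly negative on the spike-in scale. The list median was -0.17 with lpr urine and -0.21 with MRL/MpJ urine, or -1.15 and -1.09 on the spike-in scale.

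The binding partners in cell cycle and repair had 10 measured members. With lpr urine 2 reached 2-fold upward and 1 downward, beside 15.1% and 13.5% of named genes, and with MRL/MpJ urine 1 and 1, beside 14.1% and 12.3%. On the spike-in scale 0 were higher and 3 lower with lpr urine, beside 4.36% and 49.9% of named genes. With MRL/MpJ urine the counts were the same, beside 4.50% and 45.5%. The medians were 0.23 and 0.20, or -0.75 and -0.68 on the spike-in scale. Ccnb1, the gene of the cyclin B1 that GADD45 separates from CDK1, read 54.0, 61.0 and 33.6 intensity units with lpr urine, MRL/MpJ urine and PBS, and differed by 1.74 and 1.72, or by 0.76 and 0.85 on the spike-in scale. Cdk1 itself lay within 2-fold (0.21 and 0.26), and so did Pcna (0.80 and 0.55), both negative but within 2-fold on the spike-in scale. Wee1, whose kinase holds CDK1 inactive, was lower, with 6.73, 9.53 and 90.5 intensity units (-2.69 and -2.38), values near background in urine. Cdkn1a, which encodes p21, gave 1.19 and 0.46 on its brightest probe (0.21 and -0.42 on the spike-in scale) and 3.74 and 3.88 on another. Gadd45gip1, the gene of a mitochondrial protein that binds GADD45 proteins, was at -0.98 and -0.82, or -1.96 and -1.69 on the spike-in scale. The phosphatase gene Cdc25b was at -0.62 and -0.37 on its brightest probe and at 0.45 and 0.46 on its other. Cdc25c was at 0.96 and 0.70, or -0.02 and -0.18 on the spike-in scale. It was dim, at 9.27, 8.88 and 9.94 intensity units with lpr urine, MRL/MpJ urine and PBS.

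Among DNA demethylation partners, Ing1 and Tet1 were higher and the base excision genes Neil1 and Tdg were lower. Ing1, which encodes a reader of methylated histone H3 that recruits GADD45A, read 9615 intensity units with lpr urine, 12479 with MRL/MpJ urine and 2613 with PBS (2.94 and 3.12). Tet1, a 5-methylcytosine oxidase gene, differed by 2.27 and 2.07 on its brightest probe and by 0.97 and 0.85 on another. Neil1, a DNA glycosylase gene, was at -3.07 and -2.87 on its brightest probe. Its 3 probes measured with lpr urine lay between -3.07 and -2.32, and its 4 measured with MRL/MpJ urine between -2.87 and -0.95. Tdg, the glycosylase gene that completes TET-initiated demethylation, was at -1.68 and -1.56 on its brightest probe. Its 3 probes lay between -1.75 and -0.82 with lpr urine and between -1.56 and -1.07 with MRL/MpJ urine. Tet2 was at -1.01 and -1.12 on its brightest probe and reached up to -0.74 and -0.56 on others. The methyltransferase gene Dnmt3b was at -1.45 and -1.06 (-0.35 and -0.41 on its other probe). Tet3 was at 0.72 and 0.76 (-0.26 and -0.11 on the spike-in scale). The XPG nuclease gene Ercc5 was at 0.82 and 0.63 (-0.16 and -0.25 on that scale). With lpr urine, 2 of 18 measured members passed 2-fold upward and 5 downward, beside 15.1% and 13.5% of named genes, and with MRL/MpJ urine 2 and 4 of 19 did, beside 14.1% and 12.3%. On the spike-in scale 2 were higher and 9 lower with lpr urine, beside 4.36% and 49.9% of named genes. With MRL/MpJ urine the counts were the same, beside 4.50% and 45.5%. The medians were -0.02 and 0.13, or -1.002 and -0.75 on the spike-in scale.

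Of 24 measured factors that are known to control Gadd45 genes, 6 were at least 2-fold higher and 5 lower with lpr urine, beside 15.1% and 13.5% of named genes, and 5 and 6 with MRL/MpJ urine, beside 14.1% and 12.3%. On the spike-in scale 3 were higher and 14 lower with lpr urine, beside 4.36% and 49.9% of named genes. With MRL/MpJ urine the counts were the same, beside 4.50% and 45.5%. The medians were -0.29 and -0.39, or -1.27 in each comparison on the spike-in scale. Where the probes of each gene were averaged, the list medians were 0.04 with lpr urine and -0.003 with MRL/MpJ urine. Trp53, which encodes p53, read 245, 243 and 594 intensity units with lpr urine, MRL/MpJ urine and PBS, within 2-fold after scaling (-0.22 and -0.43) but lower on the spike-in scale (-1.20 and -1.31). Egr1, a zinc finger factor gene, was higher by 2.09 and 2.11, Jund by 3.26 and 3.33, and the stress factor gene Ddit3 by 3.32 and 3.58. Jund and Ddit3 each had a probe of the opposite sign, at -0.52 and -0.55 for Jund and -1.27 and -1.24 for Ddit3. Smad3, a mediator of TGF-beta, was lower on both of its probes, at -2.12 and -1.97 on the brightest. Brca1 was at -1.92 and -1.40, and at -0.03 and 0.03 on its highest probe. Pou2f1, whose protein binds the octamer printed above, was at -1.65 and -1.41 on its brightest probe and at 0.78 and 0.55 on another, and Stat3 at -1.20 and -1.42 and at 1.26 and 0.79.

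The interleukin-12 and interleukin-18 axis, in which GADD45B and GADD45G act in T cells, had members on both sides of PBS. With lpr urine 3 of 11 measured members passed 2-fold upward and 2 downward, beside 15.1% and 13.5% of named genes, and with MRL/MpJ urine 3 and 1 of 10 did, beside 14.1% and 12.3%. On the spike-in scale 1 was higher and 5 lower with lpr urine, beside 4.36% and 49.9% of named genes. With MRL/MpJ urine the counts were 2 and 4, beside 4.50% and 45.5%. The medians were 0.39 and 0.62, or -0.59 and -0.26 on the spike-in scale. Ifng read 444, 360.1 and 56.3 intensity units with lpr urine, MRL/MpJ urine and PBS, and was 4.04 and 3.54 higher on the log2 scale. The receptor subunit genes Il12rb1 (1.94 and 1.89) and Il12rb2 (1.37 and 1.46) were higher too, which on the spike-in scale became 0.96 and 1.02, and 0.40 and 0.58. Stat4, which carries the interleukin-12 signal, was lower at -1.91 and -1.85, and the cytokine subunit gene Il12a was at -1.14 and -0.89. Tbx21, encoding the T-bet factor of interferon-gamma producing cells, was within 2-fold, at -0.85 with lpr urine and -0.996 with MRL/MpJ urine, but lower on the spike-in scale, at -1.83 and -1.87.

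Other growth arrest and damage inducible genes passed 2-fold upward in 4 and downward in 2 of 14 measured members with each urine, beside the same shares of named genes (15.1% and 13.5% with lpr urine, 14.1% and 12.3% with MRL/MpJ urine). The counts on the spike-in scale were 4 and 4 with lpr urine, beside 4.36% and 49.9% of named genes. With MRL/MpJ urine they were the same, beside 4.50% and 45.5%. The medians were 0.52 and 0.45, or -0.46 and -0.43 on the spike-in scale. The antiproliferative gene Tob1 read 2319, 3285 and 252 intensity units with lpr urine, MRL/MpJ urine and PBS (4.26 and 4.56), and its relative Tob2 differed by 3.85 and 4.26, or by 1.58 and 1.64 on its other measured probe. Ppp1r15a, which encodes GADD34, a growth arrest protein that lets translation resume after stress, read 41914, 38514 and 5429 (4.01 and 3.69). Its paralogue Ppp1r15b was at -0.97 and -0.82, or -1.95 and -1.70 on the spike-in scale. Cdkn1b, the gene of the cell cycle inhibitor p27, was at -1.68 and -1.79 on its brightest probe and -0.67 and -0.78 on its other, and Btg1 was at -1.46 and -1.30 on its brightest probe and 3.01 and 3.16 on its other.

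Over these 6 lists, 18 of 92 measured genes were at least 2-fold higher and 16 lower with lpr urine, beside 15.1% and 13.5% of named genes, and 16 and 15 of 92 with MRL/MpJ urine, beside 14.1% and 12.3%. Between the urines 0 of 91 were 2-fold apart in either direction, where 0.191% of 13055 named genes were higher with lpr urine and 0.0536% lower. Both comparisons with PBS use the same PBS array, so their likeness is not independent evidence.

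**Figure D4:**
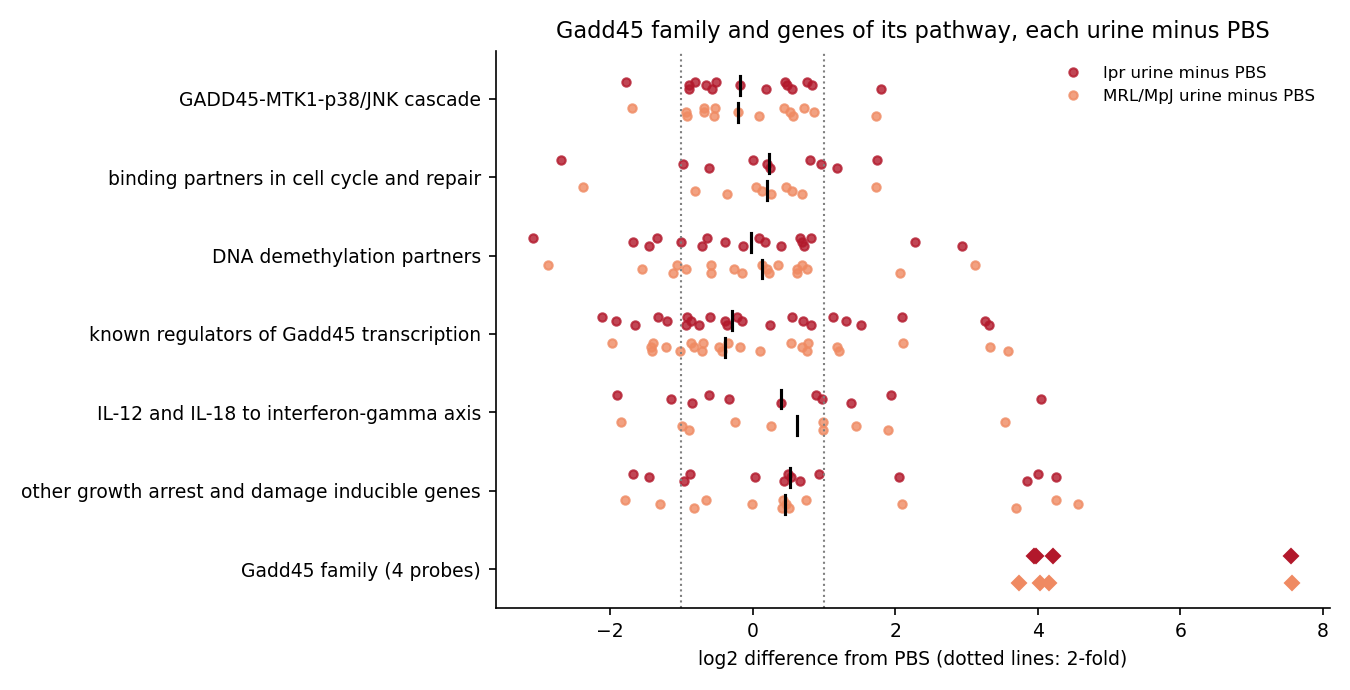
Log2 difference from PBS of each measured gene in 6 lists (1 point per gene, brightest measured probe; black bars, list medians) and of the 4 Gadd45 probes (diamonds), for lpr urine above MRL/MpJ urine in each row. The Gadd45 probes lie between 3.73 and 7.56, while the list medians lie between -0.39 and 0.62.

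Genes with the pattern most like each Gadd45 gene were found by the distance between their pairs of log2 differences from PBS, over 3 arrays and 12671 named genes measured on all of them. For Gadd45a on its mRNA probe the nearest were Glis1, Ints6, Fhdc1, Ppp1r15a and Sh2d5, at distances of 0.0422 to 0.108 on the log2 scale. Of these, Fhdc1 and Ppp1r15a rested on 1 probe each, Glis1 had another probe within 2-fold of PBS (0.97 and 0.69), and Sh2d5 had another on the other side of PBS (-0.69 and -1.33). For Gadd45b they included Chadl, Cd164l2, Cd59a and Olfr1372-ps1, at 0.0480 to 0.0998, each with 1 probe well above background on all 3 arrays. Gadd45g lay near the end of the range, where only 4 measured probes exceeded PBS by more with each urine. Wider distances come with that position, and all distances reuse the differences on which the family was chosen. The genes nearest to Gadd45g were Cracr2b, Arc, Rbm44, Pycard and Oxt, 0.501 to 1.20 away. Of these, only Arc, the gene of an activity-induced cytoskeletal protein, was read by a single probe (7.35 and 7.06). With PBS, Cracr2b, Rbm44 and Oxt read 4.81, 5.90 and 5.42 intensity units on the probes used. Cd59a and Glis1, listed above for the other members, read 5.66 and 7.49. These lie close to 4.47, the dimmest PBS signal called well above background, so the sizes of their differences are uncertain. Pycard, which encodes the inflammasome adaptor ASC, differed by 8.45 and 8.20 on its brightest probe and by 0.49 and 0.36 on its other, and Cracr2b by 7.08 and 7.39 on its brightest probe and by 0.24 and 0.27 on its lowest.

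The genes next to the family in the genome mostly lay within 2-fold of PBS after 75th percentile scaling. The nearest 2 protein-coding genes on each side, by their order on GRCm38, gave 12 neighbours, of which 10 were measured on all 3 arrays. Of these, 1 was at least 2-fold higher with lpr urine and 2 with MRL/MpJ urine, beside 15.1% and 14.1% of named genes. On this scale 0 were lower, beside 13.5% and 12.3% of named genes, and the medians were 0.06 and 0.08. The spike-in scale moves each neighbour by -0.98 with lpr urine and -0.88 with MRL/MpJ urine. This takes Gng12, Serbp1, Lmnb2, Timm13 and Sema4d past 2-fold lower with each urine. On that scale 49.9% and 45.5% of all named genes were lower. Beside Gadd45g, Sema4d was at -0.65 and -0.50 and Syk, a kinase gene of B cell receptor signalling, at 0.39 and 0.52. Beside Gadd45b, Lmnb2 and Timm13 were at -0.21 and -0.28 with lpr urine and -0.20 and -0.32 with MRL/MpJ urine. Beside Gadd45a, Gng12 was at -0.32 and -0.23, Serbp1 at -0.35 in each, and Il12rb2, given above, was the neighbour higher with both urines.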

How the data were processed

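Gene expression was measured on 3 single-colour (Cy3) Agilent arrays of design 074809, on 1 slide and from 1 scan, per the file headers. Per the labels' protocols, cRNA was labelled from 0.05 µg of total RNA. Per the file headers and the submitters' processing notes, Agilent Feature Extraction 12.0.3.1 read the scans. The deposited values are intensity per spot: the processed signal had background subtracted and was detrended within the array, but not normalised between arrays, and mean signal and local background are raw intensity. The software's flags for spots well above background, saturated or outlying were other deposited values used. Each array had 62976 spots. Flagged spots were dropped and spots of a probe averaged, which left 56599 probes, after 6 were lost. The Gadd45 probes had 1 spot each.

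The level of a probe was its log2 processed signal less the 75th percentile of that array. A difference counted as higher or lower at 2-fold or more where the probe was well above background on both arrays. For lists, each gene was read from the probe well above background on most arrays, then the brightest, and named genes were those with a RefSeq symbol (20068). Errors propagate the software's spot error, of which the multiplicative part is fixed at 0.1 of the signal. Spots of probes repeated within an array gave a median SD of 0.0540 for a log2 difference of a pair of spots, most of these probes being bright. It was 0.251 at log2 signals of 2 to 5, where the dim Gadd45a probe lies with PBS. No arrays were compared for this SD, so it leaves out variation between arrays, labellings and cultures. The number of arrays limits the precision. No test was run. The calling was tried only on simulated data with few changed probes, balanced in direction, and equal noise at all signals. The real arrays differ from this, so that trial does not vouch for the calls.

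Named were every Gadd45 probe, up to 3 genes each way per list, Map3k4, Cdk1, Ccnb1, Pcna, Trp53 and Ifng, and the 5 nearest genes per member, of which 1 is not reported here. The members and lists were chosen with earlier results of these data known. Neighbouring genes, the promoter motifs and the further genes named from these were chosen after values were seen. Sequences are from RefSeq tables on GRCm38.p6, and probe positions are those of the files on mm9. Analyses used Python 3.11.15, pandas 2.3.3 and limma 3.58.1. Alternatives were median, spike-in, quantile and no scaling, normexp correction with limma, unsubtracted mean signal, no filter on dim probes, a 4-fold threshold and the mean of a gene's probes.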

Additional observations from a re-analysis of the deposited data

How the results depend on the processing

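None of the 4 Gadd45 probes changed sign against PBS. They stayed at least 2-fold higher than PBS with both urines under the 6 other settings. Over all 7 settings the log2 differences were 6.50 to 7.55 for Gadd45g, 2.91 to 3.97 for Gadd45b, 2.89 to 3.95 for the Gadd45a mRNA probe and 1.70 to 4.21 for the dim Gadd45a probe with lpr urine, and 6.68 to 7.56, 3.15 to 4.03, 2.85 to 3.75 and 1.68 to 4.16 with MRL/MpJ urine. No paired analysis was possible because each condition had 1 array.

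Counts of probes 2-fold higher and lower moved more, and are given here in that order for lpr urine against PBS and then MRL/MpJ urine against PBS. They were 5031, 3923, 4682 and 3754 as reported, 2999, 7005, 2907 and 6815 with median scaling, 1512, 13677, 1545 and 12849 with spike-in scaling, 1374, 14635, 1576 and 12636 without scaling, 1898, 2498, 1809 and 2192 with normexp correction, and 1469, 780, 1374 and 723 at 4-fold. Without background subtraction 3048 were higher with MRL/MpJ urine. Without the filter on dim probes, values at the software's floor enter. Then 22454 were higher and 5927 lower with lpr urine, and 9687 were higher with MRL/MpJ urine. For lpr against MRL/MpJ urine the counts, 90 higher and 22 lower, became 39 and 99 without scaling, 54 and 50 with spike-ins, 7 and 5 with normexp correction, 13 and 5 without background subtraction, 8 and 5 at 4-fold and 1634 and 1160 without the filter, and 36 were lower with quantile normalization. The cause of these shifts was not tested.

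Of 92 pathway list genes, those at least 2-fold lower with lpr urine were 16, and 32 with median scaling, 43 with spike-ins and 45 without scaling. Beside them, 3923, 7005, 13677 and 14635 of 29741 measured probes were lower. With MRL/MpJ urine 15 list genes were lower, and 29, 42 and 42 in that order, beside 3754, 6815, 12849 and 12636 of 30286 probes. Where the probes of each gene were averaged, 9 were lower with MRL/MpJ urine. List genes higher, 18 with lpr urine and 16 with MRL/MpJ urine, were 10 with each under normexp correction, and with lpr urine 10 with spike-ins and 9 without scaling. Probes higher also fell, from 5031 with lpr urine to 1898, 1512 and 1374 in those settings, and from 4682 with MRL/MpJ urine to 1809 with normexp correction.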
